A study of Mus musculus with 26 samples.

Results

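The genes examined here encode the lysosome's digestive enzymes, the proteins of its membrane and the proton pump that acidifies it, the vacuolar ATPase (V-ATPase). A list of 47 such genes was used, and 45 of them had a probe set with a single gene symbol, out of 12393 genes so named on the arrays; Atp6v0c and Cd63 had none and were not analysed here. Where a gene had several probe sets, the brightest stood for it. By role the 45 genes were 4 subunits of the membrane-embedded V0 sector of the pump, 8 subunits of its cytosolic V1 sector, 2 pump accessory proteins, 7 lysosomal membrane proteins, 8 cathepsins, 8 glycosidases and 8 other lumenal proteins. On average over all arrays, 40 of the 45 lay at or above the median level of all probe sets, which was 5.50 on the scale explained below.

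Lysosomes break down protein, lipid, glycan and nucleic acid in an acidic lumen. V1 hydrolyses ATP and V0 passes the protons, while hydrolases made in the endoplasmic reticulum reach the organelle largely through mannose 6-phosphate tags. Many of these genes carry near their start sites an E-box-like element, named CLEAR, that is bound by TFEB and its relatives, transcription factors held in the cytosol by the kinase complex mTORC1 at the lysosome surface. In the other pathway of interest, cyclic AMP (cAMP) activates protein kinase A (PKA), which acts on transcription through CREB at the cAMP response element.

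RNA came from S49 cells, a mouse T-lymphoma line, in its wild-type form (WT) and as Kin-, a variant known to lack PKA activity. WT and Kin- were each sampled untreated, called 0 h (4 arrays per line), and after 2, 6 and 24 h in 100 µM 8-CPT-cAMP, an analog of cAMP that enters cells (3 arrays per line and time). That gave 26 arrays with 22626 probe sets in 8 groups. No untreated arrays were taken at the later times, so time in culture and time with the analog cannot be told apart. The labels name a single line of each kind and do not say whether the arrays of a group stem from separate cultures; p-values therefore reflect array-to-array spread that may be technical. In bulk RNA, fewer cells of a kind and less RNA per cell cannot be told apart.

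The deposited values carry no stated scale. Their square root was taken as log2 intensity, an assumption, and levels and differences below are on that scale, so that a difference of 1 may not be an exact doubling. Levels of different genes come from different probes and are not compared. A gene passed the test where its adjusted p was under 0.05 (limma, adjusted over all 22626 probe sets). Arrays numbered 1 to 14 and 16 to 47 in the labels form sets that stand apart: the first component of the variation within groups, 35.5% of it, had scores up to -14.3 in the 10 arrays numbered 1 to 14 and from 6.23 in the 16 others. Every group held arrays of both sets. Of the marker lists, 10 T-cell markers had a mean level between 9.63 and 10.45 in every WT array and 12 myeloid markers one between 3.62 and 3.95, and as the probes differ these levels are only a rough check of the label. Crem, a direct target of CREB, rose by 6.07, 5.55 and 5.71 at 2, 6 and 24 h in WT, while its differences in Kin- were 0.05, 0.12 and -0.14.

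The start regions of the genes were searched first, for the CLEAR core TCACGTGA, the E-box core CACGTG, which lies within it, and the full cAMP response element TGACGTCA. Each reads the same on both strands. RefSeq promoters of 300 bases (250 before the start and 50 after it, build GRCm38.p6) were at hand for 37 of the 45 genes. TCACGTGA was in 7 of the 37 genes (18.9%), against 1.76% of 9887 genes on the arrays with a promoter in the table. CACGTG was in 14 (37.8%), against 10.8%, and TGACGTCA in 1 (2.7%), against 2.99%. A match describes the letters and is neither a shown binding site nor a cause of the values that follow.

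A few of the promoters are printed, 5′ to 3′ along the gene, because they carry these elements in genes with different time courses. Capitals mark TCACGTGA in Ctsa, Ctsd, Atp6v0d1 and Atp6v1a, CACGTG in Lamp1 and TGACGTCA in Gusb. Ctsa holds TCACGTGA at -13 and again at 4, counted from the annotated transcription start of the printed promoter, while a second annotated Ctsa promoter held none of the elements. Ctsd has it at -99, Atp6v0d1 at -4 and Atp6v1a at -132. Lamp1 has CACGTG at -61, -45, -28 and -15, and the Gusb element begins at -4.

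Ctsa promoter, chr2:164833523-164833822, + strand: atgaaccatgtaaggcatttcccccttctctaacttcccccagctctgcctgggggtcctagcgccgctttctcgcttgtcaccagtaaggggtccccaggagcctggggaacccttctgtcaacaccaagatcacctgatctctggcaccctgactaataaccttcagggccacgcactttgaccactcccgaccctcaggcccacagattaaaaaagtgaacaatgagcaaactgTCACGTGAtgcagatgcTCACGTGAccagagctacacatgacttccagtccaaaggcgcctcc

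Ctsd promoter, chr7:142387778-142388077, - strand: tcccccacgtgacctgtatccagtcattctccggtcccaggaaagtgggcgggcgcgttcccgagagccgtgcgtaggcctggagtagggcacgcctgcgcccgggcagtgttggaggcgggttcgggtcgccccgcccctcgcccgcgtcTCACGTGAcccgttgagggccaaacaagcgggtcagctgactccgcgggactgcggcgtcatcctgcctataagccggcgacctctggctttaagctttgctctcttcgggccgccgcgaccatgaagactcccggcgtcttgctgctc

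Atp6v0d1 promoter, chr8:105566015-105566314, - strand: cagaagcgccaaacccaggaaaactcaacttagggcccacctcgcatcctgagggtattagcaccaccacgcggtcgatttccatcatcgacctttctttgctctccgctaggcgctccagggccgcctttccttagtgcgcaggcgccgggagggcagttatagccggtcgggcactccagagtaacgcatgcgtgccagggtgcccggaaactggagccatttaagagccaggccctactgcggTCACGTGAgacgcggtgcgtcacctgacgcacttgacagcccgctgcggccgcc

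Atp6v1a promoter, chr16:44139210-44139509, - strand: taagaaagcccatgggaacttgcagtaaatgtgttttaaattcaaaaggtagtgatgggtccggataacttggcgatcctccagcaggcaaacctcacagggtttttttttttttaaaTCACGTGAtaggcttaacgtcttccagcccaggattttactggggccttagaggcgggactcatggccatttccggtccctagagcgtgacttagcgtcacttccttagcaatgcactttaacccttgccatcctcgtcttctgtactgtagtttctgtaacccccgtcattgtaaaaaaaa

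Lamp1 promoter, chr8:13158911-13159210, + strand: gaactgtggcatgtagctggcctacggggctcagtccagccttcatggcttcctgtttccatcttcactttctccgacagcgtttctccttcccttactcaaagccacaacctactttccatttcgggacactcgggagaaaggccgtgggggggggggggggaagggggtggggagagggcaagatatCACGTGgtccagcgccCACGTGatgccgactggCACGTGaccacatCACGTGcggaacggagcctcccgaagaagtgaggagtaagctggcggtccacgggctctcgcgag

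Gusb promoter, chr5:130003000-130003299, - strand: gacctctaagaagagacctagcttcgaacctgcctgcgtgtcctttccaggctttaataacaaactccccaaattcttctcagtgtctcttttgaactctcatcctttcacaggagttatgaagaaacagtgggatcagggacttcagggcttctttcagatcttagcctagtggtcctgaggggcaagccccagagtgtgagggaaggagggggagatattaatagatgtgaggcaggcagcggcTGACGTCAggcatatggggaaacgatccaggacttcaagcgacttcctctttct

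The other 3 genes with TCACGTGA were Atp6v0e, Mcoln1 and Gla. Among the 7 genes with it, 5 were higher in WT at 24 h than at 0 h and the median difference was 0.55, while 18 of the 30 without it were higher, with a median of 0.66. Of the 12 members with the largest differences past the threshold at 24 h, 3 held TCACGTGA (Ctsa, Ctsd and Atp6v0d1), Glb1 held CACGTG alone, and 8 held none of the 3 elements in these windows.

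After 24 h with the analog, most of the lysosomal genes were higher in WT cells. Of 45 members 25 (55.6%) were higher at 24 h than at 0 h and 3 (6.67%) lower, where 16.3% of all 12393 genes were higher and 16.3% lower. Among genes at or above the median level, where most members lie, 26.3% were higher and 29.4% lower. The median difference of the members was 0.54, against -0.01 over all genes. The 24 h arrays lay wholly above the 0 h arrays for 25 members and wholly below for 3, against 17.2% and 16.8% of all genes.

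**Figure D1:**
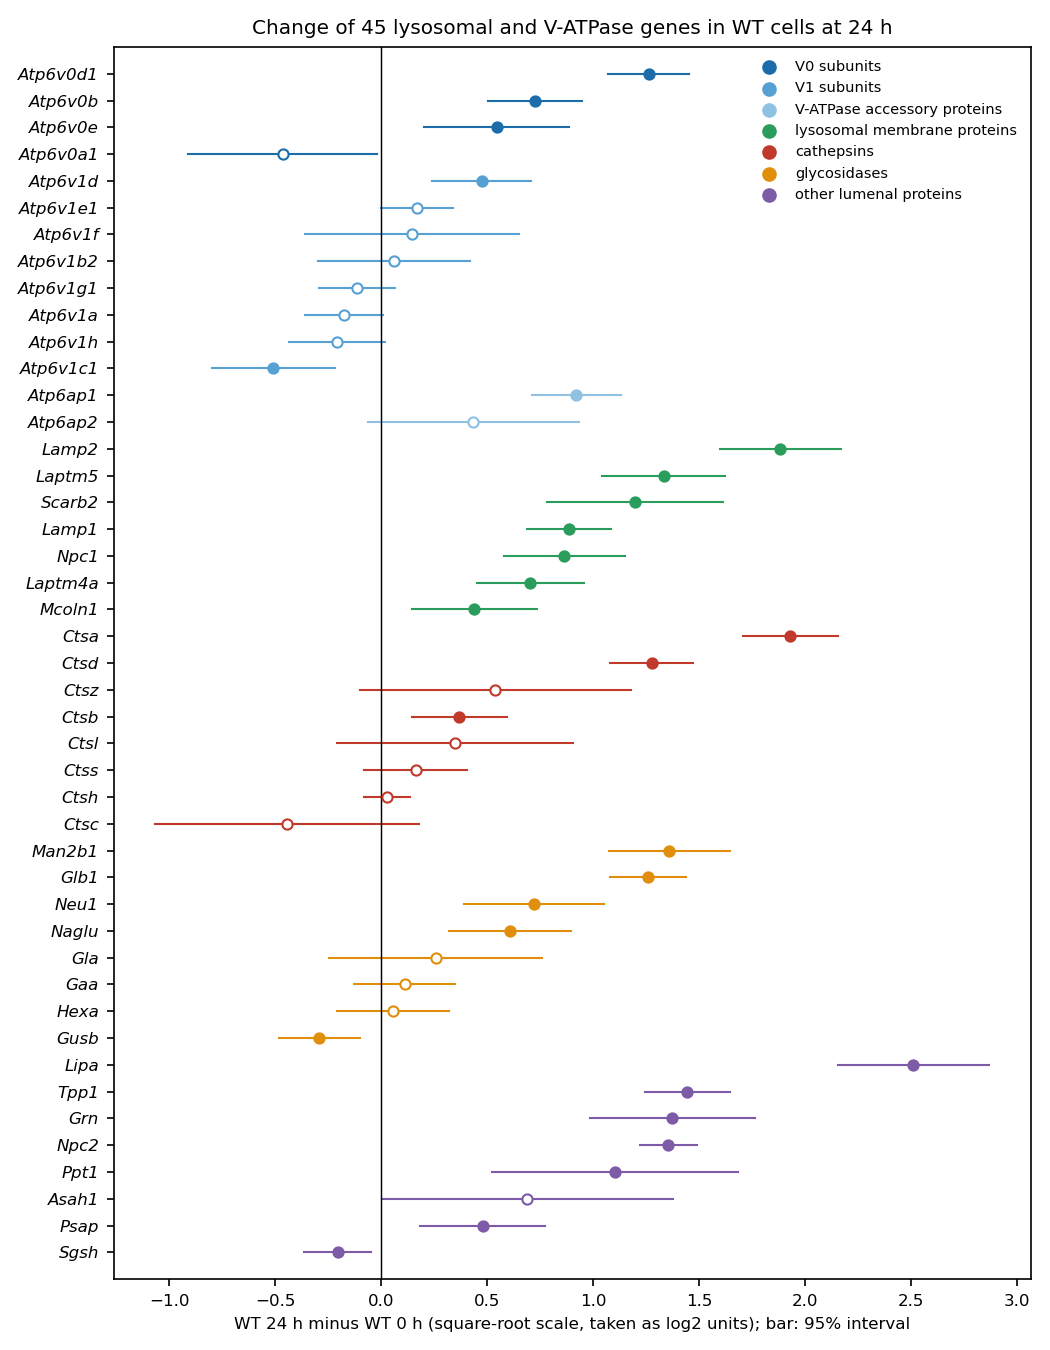
Difference in level (WT 24 h minus WT 0 h, square-root scale taken as log2, along the x axis) for each of the 45 members, coloured by role, with 95% confidence intervals from limma; filled points passed adjusted p 0.05 and open points did not. All lysosomal membrane proteins are filled and to the right of 0, while the V1 subunits lie around it.

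The shift built up late. At 2 h 5 members were higher (11.1%) and 3 lower (6.67%), against 7.25% and 8.44% of all genes and 11.5% and 15.4% of genes at or above the median level, with a median difference of -0.04. At 6 h 10 were higher (22.2%) and 5 lower (11.1%), against 11% and 11.1% of all genes and 19.3% and 20% of genes at or above the median level, with a median of 0.12. The share that was higher was thus near that of genes of like level. Between 24 h and 6 h, which share no 0 h arrays, 22 members were higher and 1 was lower, against 9.85% and 9.84% of all genes, and the median difference was 0.53. By their calls at the 3 times, 15 members were higher at 24 h alone, 5 at 6 and 24 h (Atp6v0d1, Laptm5, Scarb2, Npc1 and Man2b1) and 4 at all 3 times (Lamp2, Laptm4a, Lipa and Npc2). Of the rest, 14 passed at no time, Gusb and Atp6v1c1 were lower at all 3, and the remaining 5 were Gla, Psap, Sgsh, Ctsl and Gaa, described below. All these calls are by brightest probe set. Among the 15 higher at 24 h alone, dimmer probe sets of Grn, Ppt1 and Mcoln1 were higher at 6 h too (adjusted p = 0.00366, 0.00337 and 0.0115). No dimmer probe set of the others of the 15 passed at 6 h. For Scarb2, Man2b1 and Laptm5, a dimmer probe set did not pass at 6 h.

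The labels number most arrays in runs of consecutive numbers that each span 0 to 24 h, and a replicate block compares arrays within a run. Arrays 13 (WT) and 14 (Kin-) are untreated only and belong to no run, so they do not bear on the times against 0 h in that fit. It left the counts within 1.5 times of these but changed single calls. At 2 h Atp6v1e1 (0.22), Ctsd (-0.30), Ctsl (-0.69) and Man2b1 (0.28) passed with it. At 6 h Atp6v1b2 (0.26), Atp6ap2 (0.34), Ctsb (0.29) and Ctsc (-0.24) passed and Sgsh (-0.14) did not. At 24 h it added Atp6v1e1, Atp6ap2, Ctsc, Ctsl, Ctsz and Asah1 and dropped Sgsh, and the median of the members was 0.57 in place of 0.54.

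**Figure D2:**
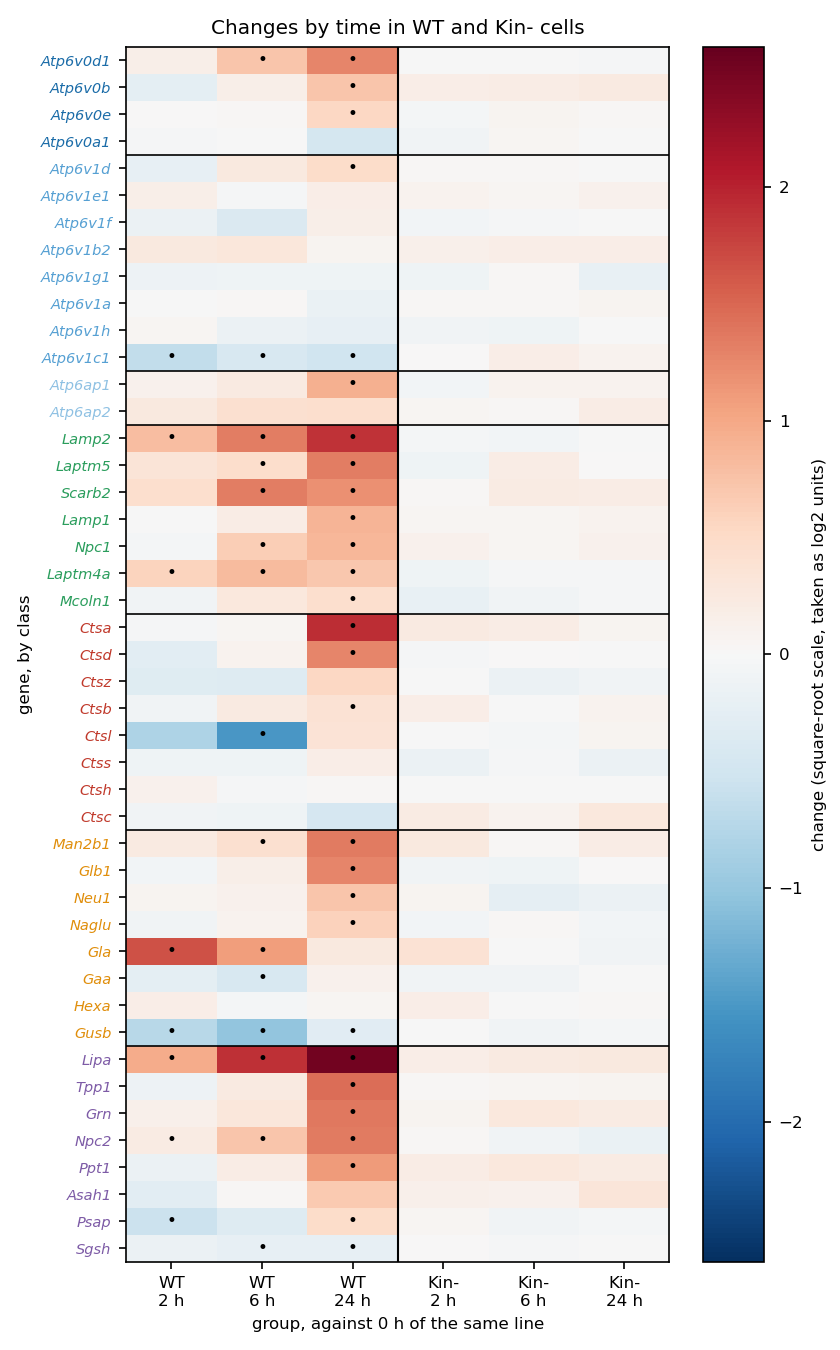
Difference in level from 0 h for each member (down the page, by role) at 2, 6 and 24 h in WT and Kin- (across), with colour giving the difference on the square-root scale taken as log2 and a dot where adjusted p was under 0.05. The WT columns deepen with time for most membrane and lumenal proteins, Gusb and Ctsl are lower at 6 h, and the Kin- columns are pale and hold no dot.

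The lysosomal membrane proteins were the class in which every measured member rose. All 7 were higher at 24 h, with a median difference of 0.89, and 5 were already higher at 6 h and 2 at 2 h. Of genes at or above the median level, 26.3%, 19.3% and 11.5% were higher at 24, 6 and 2 h. Of all genes these shares were 16.3%, 11% and 7.25%. Lamp2, a heavily glycosylated protein of the limiting membrane that also serves chaperone-mediated autophagy, had levels of 10.39, 10.33, 10.77 and 10.46 at 0 h, 10.88, 11.40 and 11.57 at 2 h, 11.63, 11.93 and 11.88 at 6 h and 12.37, 12.45 and 12.29 at 24 h in WT. Each later time stood above the one before it without overlap. The differences from 0 h were 0.80 ± 0.14 (SE; adjusted p = 0.000258) at 2 h, 1.33 ± 0.14 (adjusted p = 4.04e-07) at 6 h and 1.88 ± 0.14 (adjusted p = 1.01e-09) at 24 h. In the 13 Kin- arrays Lamp2 lay between 9.93 and 10.28 at every time.

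Laptm5, which in lymphocytes helps send antigen receptors to the lysosome, had the brightest probe set of the group. It was at 13.56, 13.42 and 13.58 in WT at 24 h, against 12.26, 11.91, 12.29 and 12.29 at 0 h. All treated arrays of that time stood above all untreated ones, by 1.33 ± 0.14 on average (adjusted p = 1.43e-07). Scarb2, the receptor that carries glucocerebrosidase to the lysosome, was at 8.96, 9.20 and 9.24 at 6 h and 8.70, 9.07 and 9.24 at 24 h, against 7.79, 7.68, 7.79 and 7.95 at 0 h. Its differences were 1.33 ± 0.20 at 6 h (adjusted p = 3.78e-05) and 1.20 ± 0.20 at 24 h (adjusted p = 5.16e-05), with no overlap at either time. A dimmer Scarb2 probe set also rose at 24 h, by 0.83, but at 6 h it gave 0.18 (adjusted p = 0.396) and at 2 h it was lower, by -0.62 (adjusted p = 0.000978), where the brighter one gave 0.43 (adjusted p = 0.178).

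The other 4 membrane proteins rose by 0.44 to 0.89 at 24 h. They were Lamp1, the close relative of Lamp2 (0.89, adjusted p = 2.11e-07), Npc1, the membrane cholesterol exporter (0.86), Laptm4a (0.70) and Mcoln1, the TRPML1 calcium channel (0.44, adjusted p = 0.0207). Laptm4a stood at 10.10 to 10.57 in all 9 treated WT arrays, against 9.34 to 9.79 at 0 h, and was already 0.58 higher at 2 h (adjusted p = 0.00177). Mcoln1 was the least separated of the group: 1 of its 24 h arrays, at 7.93, lay within the 0 h range of 7.68 to 8.11.

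**Figure D3:**
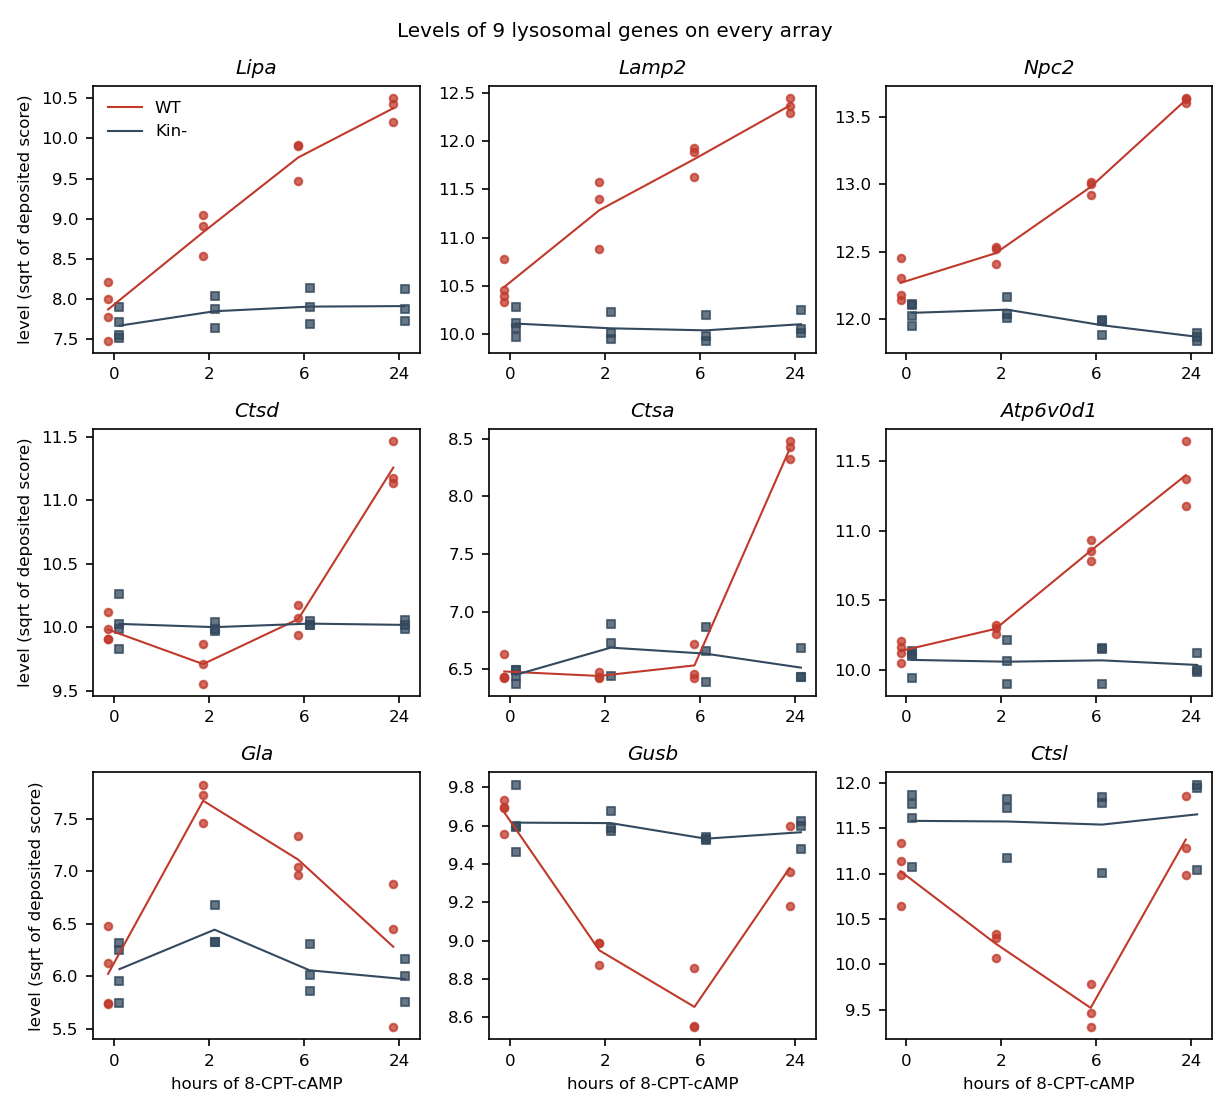
Level of 9 members in every array (square-root scale, taken as log2) against hours with the analog, evenly spaced, in WT (circles) and Kin- (squares), with lines through the group means. Lipa, Lamp2 and Npc2 climb at each time in WT, Atp6v0d1 at 6 and 24 h, Ctsa and Ctsd are higher at 24 h, Gusb and Ctsl dip at 6 h, Gla is highest at 2 h, and Kin- arrays stay near their 0 h levels.

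Cathepsins, the lysosomal proteases, moved unevenly. At 24 h 3 of 8 (37.5%) were higher, none was lower and the median difference was 0.36 (limma). In either direction 32.5% of all genes passed, and 55.7% of genes at or above the median level. At 2 h none of the 8 passed, while 3 of them had an unadjusted p under 0.05, as did 26.2% of all genes. Ctsa, the carboxypeptidase that also protects the sialidase and β-galactosidase, had levels of 6.63, 6.42, 6.43 and 6.43 at 0 h, 6.42, 6.43 and 6.47 at 2 h, 6.71, 6.46 and 6.42 at 6 h and 8.48, 8.43 and 8.32 at 24 h in WT. The 3 arrays at 24 h stood alone, 1.93 ± 0.11 above 0 h (adjusted p = 2.81e-11). Of the 26 arrays of both lines, 10 lay within 0.02 of 6.43.

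Ctsd, the aspartic protease, was at 11.18, 11.46 and 11.13 at 24 h, against 10.12, 9.91, 9.99 and 9.90 at 0 h in WT. Like Ctsa it was raised at 24 h alone, by 1.28 ± 0.09 (adjusted p = 1.28e-09), and its 6 h arrays at 9.94 to 10.18 overlapped those at 0 h. Ctsb, a cysteine protease, rose by 0.37 (adjusted p = 0.0109) by its brightest probe set alone. A dimmer Ctsb probe set, at a mean level of 8.83, gave 0.07 (adjusted p = 0.891). The others gave 0.11 (adjusted p = 0.705) and 0.17 (adjusted p = 0.229). Ctsl, another cysteine protease, dipped instead. It was at 11.14, 11.34, 10.98 and 10.64 at 0 h, 10.29, 10.33 and 10.07 at 2 h, 9.79, 9.47 and 9.31 at 6 h and 10.99, 11.86 and 11.28 at 24 h in WT. All arrays at 2 h and 6 h were below all arrays at 0 h, and those at 24 h overlapped them. The 6 h difference was -1.50 ± 0.27 (adjusted p = 0.000262), the 2 h difference of -0.80 missed the threshold (adjusted p = 0.0509) but passed as -0.69 with the replicate block explained above (adjusted p = 0.00509), and between 24 h and 6 h Ctsl rose by 1.85 (adjusted p = 6.38e-05).

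Ctsz, the carboxypeptidase cathepsin X and the brightest probe set of the class, showed the array sets plainly. It was at 13.35 in the WT 24 h array numbered 1 to 14 and 12.29 and 12.35 in the other 2, against 12.51 and 12.57 in the 0 h arrays of the first set and 11.60 and 11.81 in those of the second. The groups overlapped when pooled (difference 0.54, adjusted p = 0.235) and did not overlap within a set. With the replicate block the difference was 0.69 (adjusted p = 2.15e-06). Ctsc, which activates granule proteases of lymphocytes, differed by -0.44 (adjusted p = 0.353), and by -0.57 with the block (adjusted p = 3.6e-05), while Ctsl at 24 h passed with it as well (0.45, adjusted p = 0.0347). Ctsh and Ctss had low levels throughout, at 2.37 to 2.65 and 3.65 to 4.41, and did not pass.

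Glycosidases, which strip sugars from glycoproteins and glycolipids, held members of every kind. At 24 h 4 of 8 were higher and 1 lower, with a median difference of 0.43. The share called, 62.5%, was near the 55.7% of genes at or above the median level, where 32.5% of all genes were called. Man2b1, the acid α-mannosidase, was at 9.99, 10.46 and 10.49 at 24 h, against 8.67, 9.08, 9.06 and 9.01 at 0 h in WT, a difference of 1.36 ± 0.14 (adjusted p = 8.74e-08). Glb1, the acid β-galactosidase, was at 8.58, 8.80 and 8.64, against 7.34, 7.36, 7.47 and 7.48, a difference of 1.26 ± 0.09 (adjusted p = 4.2e-10). Neither gene's groups overlapped, and Glb1 had shown no passed difference before 24 h. Neu1, the sialidase that travels with Ctsa, rose by 0.72 (adjusted p = 0.00104). Dimmer Neu1 probe sets gave 0.96 (adjusted p = 0.219) and 0.07 (adjusted p = 0.573). Naglu, which acts on heparan sulfate, rose by 0.61 (adjusted p = 0.00138) and was dim, at 3.84 to 4.45 at 24 h, against 3.45 to 3.57 at 0 h.

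Gusb, β-glucuronidase and the brightest of the glycosidase probe sets, was lower at each time. Its WT levels were 9.69, 9.70, 9.73 and 9.56 at 0 h, 8.88, 8.98 and 8.99 at 2 h, 8.86, 8.55 and 8.55 at 6 h and 9.60, 9.18 and 9.36 at 24 h. It was below every 0 h array at 2 h and 6 h, and at 24 h it overlapped them in 1 array. The differences were -0.72 ± 0.09 (adjusted p = 8.46e-06), -1.02 ± 0.09 (adjusted p = 7.31e-08) and -0.29 ± 0.09 (adjusted p = 0.0186), and Gusb was 0.73 higher at 24 h than at 6 h (adjusted p = 1.43e-05). A second Gusb probe set gave differences of the same sign.

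Gla, the α-galactosidase that clears globotriaosylceramide, had its highest levels early. In WT it was at 6.48, 6.13, 5.74 and 5.75 at 0 h, 7.73, 7.46 and 7.82 at 2 h, 6.96, 7.33 and 7.04 at 6 h and 6.88, 5.52 and 6.45 at 24 h. The 2 h and 6 h arrays were all above those at 0 h, while the 24 h arrays spanned them. The differences were 1.65 ± 0.24 at 2 h (adjusted p = 4.47e-05), 1.09 ± 0.24 at 6 h (adjusted p = 0.00212) and 0.26 at 24 h (adjusted p = 0.577). This rested on 1 probe set: a dimmer Gla probe set, at a mean level of 5.65, gave 0.20 at 2 h (adjusted p = 0.426). Gaa, the acid α-glucosidase of glycogen, was lower at 6 h alone, by -0.42 (adjusted p = 0.00986), and Hexa stayed at 3.50 to 4.28 in all arrays.

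The other lumenal proteins showed the highest median difference at 24 h, 1.23, with 6 of 8 higher and 1 lower. That was 87.5% called, against 32.5% of all genes and 55.7% of genes at or above the median level. Lipa, the acid lipase that frees cholesterol and fatty acids from lipoprotein lipids, had the largest difference of all 45 genes by brightest probe set. Dimmer Lipa probe sets gave 2.04 and 1.46 at 24 h. Dimmer ones of Lamp2 gave 1.73, 3.42 and 3.16, and one of Tpp1 gave 2.69. Its WT levels were 7.78, 7.48, 8.00 and 8.21 at 0 h, 8.91, 8.53 and 9.05 at 2 h, 9.47, 9.91 and 9.92 at 6 h and 10.20, 10.43 and 10.50 at 24 h. As with Lamp2, no 2 times overlapped. Lipa was higher by 0.96 ± 0.17 at 2 h (adjusted p = 0.000365), 1.90 ± 0.17 at 6 h (adjusted p = 6.91e-08) and 2.51 ± 0.17 at 24 h (adjusted p = 4.03e-10). Over the 8 group means, the named genes with the profile most like Lipa's were Ubald1 (r = 0.998), Sptlc1 (0.997), Lrp10 (0.997), Ctla2b (0.995) and Ap3b1 (0.994), a description over 8 points that share arrays. The most alike pair of members was Atp6ap1 and Grn (r = 0.995).

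Npc2, the soluble cholesterol carrier that hands its cargo to Npc1, was at 13.63, 13.64 and 13.61 at 24 h, against 12.46, 12.31, 12.14 and 12.18 at 0 h. It passed at every time, and its arrays at 6 h and 24 h, though not at 2 h, stood wholly above those at 0 h. The differences were 0.22, 0.71 and 1.36 at 2, 6 and 24 h, with SE 0.07 at each (adjusted p = 0.0256, 8.54e-08 and 2.79e-12). Tpp1, the tripeptidyl peptidase, was at 9.42, 9.92 and 9.92 at 24 h, against 8.24, 8.27, 8.35 and 8.37 at 0 h, higher by 1.44 ± 0.10 (adjusted p = 2.98e-10). Grn, the progranulin precursor, was at 10.87, 11.69 and 11.38, against 9.94, 9.84, 9.92 and 10.05, higher by 1.37 ± 0.19 (adjusted p = 4.46e-06). By brightest probe set these 2 genes did not pass at 2 h or 6 h, and all of their 24 h arrays stood above 0 h. A dimmer Grn probe set, at a mean level of 8.63, was higher at 6 h by 0.385 (adjusted p = 0.00366).

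Ppt1, the palmitoyl-protein thioesterase, rose by 1.10 at 24 h (adjusted p = 0.00351). Psap, precursor of the saposins that present lipids to the hydrolases, was lower at 2 h by -0.56 (adjusted p = 0.00782) and higher at 24 h by 0.48 (adjusted p = 0.0112). A dimmer Psap probe set, at a mean level of 9.11, gave -0.29 at 2 h (adjusted p = 0.347) and 0.24 at 24 h (adjusted p = 0.425). Asah1, acid ceramidase, differed by 0.69 at 24 h (adjusted p = 0.139) and by 0.57 with the replicate block (adjusted p = 0.0255). Sgsh, the heparan sulfamidase, was called lower at 24 h by -0.21 (adjusted p = 0.0464), and also at 6 h by -0.22 (adjusted p = 0.0434). That call rested on the 0 h arrays numbered 1 to 14, at 4.50 and 4.65, since 24 of the 26 arrays lay within 0.1 of 4.19. The 24 h difference was -0.12 with the block (adjusted p = 0.226) and 0.00 in arrays 16 to 47 alone.

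Of the 14 proton pump genes 6 (42.9%) passed at 24 h. That share lay between the 32.5% of all genes that passed and the 55.7% of genes at or above the median level. Of the 6, 5 were higher and 1 lower, and the median over all 14 was 0.16. Of the 31 other members 20 were higher and 2 lower, with a median of 0.70. In V0, 3 of 4 subunits were higher and none lower (median 0.64); in V1, 1 of 8 was higher and 1 lower (median -0.03). The share called in either direction was 75% in V0 and 25% in V1, and the difference between sectors was not tested.

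Atp6v0d1, subunit d of the V0 stalk, was at 10.20, 10.12, 10.05 and 10.17 at 0 h, 10.26, 10.30 and 10.32 at 2 h, 10.85, 10.78 and 10.93 at 6 h and 11.18, 11.64 and 11.37 at 24 h in WT. No later array fell to the 0 h range. It was higher by 0.72 ± 0.09 at 6 h (adjusted p = 6.26e-06) and 1.26 ± 0.09 at 24 h (adjusted p = 1.07e-09). Atp6v0e, subunit e and the brightest of V0, was at 11.24, 11.29 and 11.40 at 24 h, against 10.91, 10.95, 10.58 and 10.62 at 0 h, higher by 0.55 ± 0.16 (adjusted p = 0.013) without overlap. Atp6v0b, subunit c'' of the proteolipid ring, was higher by 0.73 (adjusted p = 1.24e-05). Atp6v0a1, isoform 1 of the channel subunit a, did not pass by its brightest probe set (-0.46, adjusted p = 0.123), while a dim one at a mean level of 2.63 gave 1.96 (adjusted p = 0.000112).

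Atp6v1g1, of the V1 peripheral stalk, had the brightest V1 probe set. It was at 12.19, 12.28 and 12.14 at 24 h, against 12.55, 12.20, 12.21 and 12.31 at 0 h (difference -0.11, adjusted p = 0.434). The catalytic subunit Atp6v1a, whose promoter is printed above, was at 10.40, 10.48 and 10.69, against 10.74, 10.60, 10.74 and 10.70 (difference -0.17, adjusted p = 0.168). Both overlapped their 0 h ranges. Atp6v1c1, a subunit at the V1 to V0 junction that is released when the pump comes apart, was lower at every time, by -0.63 at 2 h (adjusted p = 0.00297), -0.42 at 6 h (adjusted p = 0.0388) and -0.51 at 24 h (adjusted p = 0.00681). By this brightest probe set all 9 of its treated WT arrays, at 10.10 to 10.54, were below the 0 h arrays at 10.74 to 11.06. A dimmer Atp6v1c1 probe set, at a mean level of 9.25, was lower at 2 h (-0.38, adjusted p = 0.0216) and 24 h (-0.33, adjusted p = 0.0254). At 6 h it gave -0.15 (adjusted p = 0.458). The dimmest gave -0.53, -0.43 and -0.19 at 2, 6 and 24 h and passed at no time (adjusted p = 0.158, 0.259 and 0.741). Atp6v1d, of the central stalk, was higher at 24 h by 0.47 (adjusted p = 0.00214). Atp6v1e1, of the peripheral stalk, differed by 0.17 (adjusted p = 0.141), by 0.24 with the block (adjusted p = 0.0154) and by 0.37 in arrays 16 to 47 alone (adjusted p = 0.000359).

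Among the accessory proteins Atp6ap1 was higher by 0.92 at 24 h (adjusted p = 2.66e-07). Atp6ap2, the (pro)renin receptor, was at 12.08, 12.42 and 12.36, against 11.62, 11.66, 12.01 and 12.12, and 1 array overlapped. Its difference was 0.43 (adjusted p = 0.217), and 0.37 with the block (adjusted p = 0.00253).

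**Figure D4:**
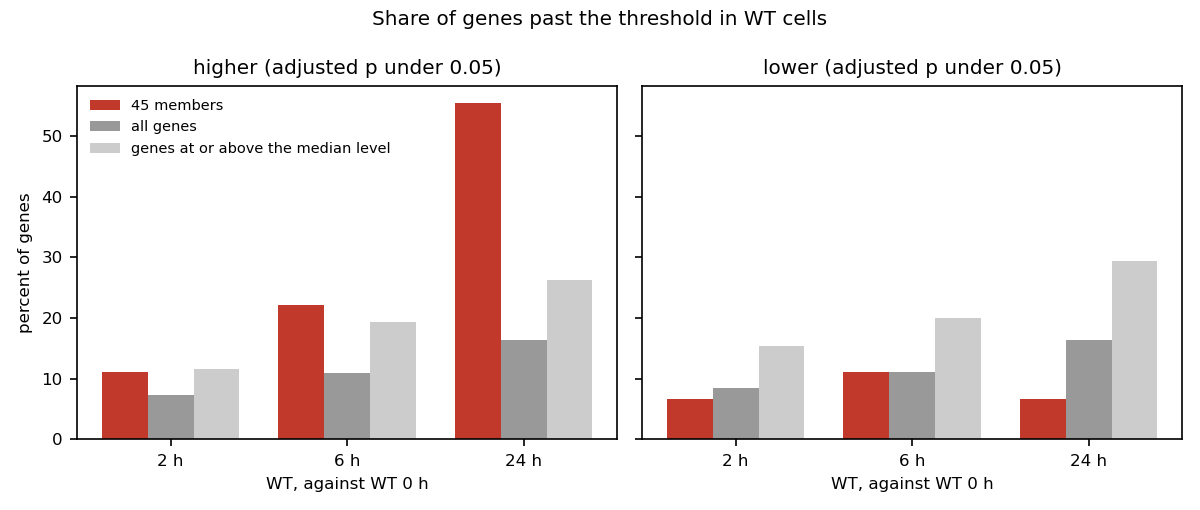
Percent of genes past adjusted p 0.05 in WT at 2, 6 and 24 h against 0 h, higher and lower, for the members, for all named genes and for genes at or above the median level. At 24 h 55.6% of members are higher, against 16.3% of all genes and 26.3% of the brighter ones.

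In Kin- none of the 45 genes passed at 2, 6 or 24 h, where 0% of all genes passed as well (limma). At an unadjusted p under 0.05 there were 1, 0 and 3 members, against 2.17%, 1.93% and 2.32% of all genes. The largest of the 135 member differences in Kin- was 0.38, of Gla at 2 h. Their 95% intervals had widths to either side from 0.11 to 0.69 with a median of 0.28, so smaller changes were not detectable. The intervals are not adjusted for the number of probe sets, so changes larger than these widths could also miss the threshold.

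Whether the lines differed in response was tested directly, as the WT response minus the Kin- response. At 24 h this difference passed above 0 for 20 members (44.4%) and below 0 for 1 (2.22%), against 11.7% and 12% of all genes. At 6 h the counts were 7 (15.6%) and 2 (4.44%), against 5.91% and 6.54%. At 2 h they were 3 (6.67%) and 1 (2.22%), against 3.7% and 4.02%. Among genes at or above the median level the shares were 19.1% and 22.1% at 24 h, and 10.3% and 12% at 6 h. At 2 h they were 6.31% and 7.41%, so the share of members above 0 was near that of genes of like level. The members below 0 were Gusb at 2 h, Gusb and Ctsl at 6 h and Atp6v1c1 at 24 h, each of which was lower in treated than in untreated WT cells. With the replicate block 8 members passed at 2 h, for 4 without it, with Atp6v1c1 (-0.64), Ctsl (-0.75), Lipa (0.70) and Psap (-0.53) added. At 6 h it added Atp6v1c1 (-0.60), Npc1 (0.64) and Man2b1 (0.48) and dropped Gla (1.05, adjusted p = 0.0555). At 24 h it added Atp6v0e, Mcoln1, Ctsc, Ctsz, Ppt1 and Psap, of which Ctsc was below 0 (-0.69). By brightest probe set, the widest differences at 24 h were Lipa (2.27, adjusted p = 6.97e-07), Lamp2 (1.89, adjusted p = 4.35e-07) and Ctsa (1.87, adjusted p = 2.53e-08).

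Between untreated Kin- and WT cells few members passed by brightest probe set, with 1 higher and 2 lower in Kin-, against 1.74% and 1.73% of all genes. Lamp2 did not pass by its brightest probe set (-0.38, adjusted p = 0.134). Dimmer Lamp2 probe sets gave -0.415 (adjusted p = 0.0279), -0.745 (adjusted p = 0.0145) and -0.669 (adjusted p = 0.099). Atp6v1e1 was at 10.27, 10.51, 10.37 and 10.44 in Kin-, against 10.05, 10.19, 9.88 and 9.84 in WT, higher by 0.41 (adjusted p = 0.00287) without overlap. Atp6v1d was at 10.23, 10.03, 10.19 and 9.76 in Kin-, against 10.36, 10.47, 10.48 and 10.56 in WT, lower by -0.42 (adjusted p = 0.0304), also without overlap. That call was lost under 9 of 20 alternatives (adjusted p = 0.0665 to 0.344), 5 of which left out a single array (13, 16 or 36 of WT, 14 or 44 of Kin-). Npc2 was at 12.03, 12.11, 11.95 and 12.11 in Kin-, against 12.46, 12.31, 12.14 and 12.18 in WT, without overlap and lower by -0.22 (adjusted p = 0.0499), at the edge of the threshold. No run holds arrays of both lines, so a block cannot compare the lines within a run. For this comparison the runs entered instead as a correlation between arrays of a run, estimated by limma at 0.305. With that fit Npc2 missed (adjusted p = 0.0702) and Laptm5 passed at -0.47 (adjusted p = 0.0249). With a term for the array set 9 members (20%) passed, against 6.78% of all genes in that fit.

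Further genes of the same organelle were read from lists of their own. For scale, 16.3% of all genes were higher in WT at 24 h and 16.3% lower. Among genes at or above the median level these shares were 26.3% and 29.4%. Of 25 other lysosomal hydrolases and cofactors, 10 were higher in WT at 24 h and 1 lower, with a median difference of 0.18. They included Ctse, an aspartic protease (2.08, adjusted p = 1.17e-12), and Gm2a, the GM2 ganglioside activator (1.94, adjusted p = 9.63e-10). Of 23 other membrane proteins, 9 were higher and 1 lower (median 0.26), led by Cln3, the Batten disease protein (2.23, adjusted p = 5.36e-11). Among 8 other V-ATPase isoforms 2 (25%) were higher and none lower (median 0.03). A mixed list of 11 genes covered mannose 6-phosphate tagging and receptors, sorting adaptors and sulfatase activation. Of these, 4 were higher and 1 lower, with a median of 0.00. The higher ones included Sumf1, which activates sulfatases (1.00, adjusted p = 6.49e-06), Igf2r, the large mannose 6-phosphate receptor (0.75, adjusted p = 3.17e-06), and Ap3b1, a subunit of the AP-3 sorting adaptor (0.80, adjusted p = 3.26e-05).

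The regulators of the organelle were read next. Among 16 genes of the MiT/TFE factors and of mTORC1 at the lysosome 4 (25%) were higher and none lower at 24 h (median 0.07). That share was near the 26.3% of genes at or above the median level, against 16.3% of all genes. The widest differences were those of Lamtor4 of the Ragulator complex (0.91) and Flcn, folliculin (0.72). Tfeb itself differed by 0.25 (adjusted p = 0.211) and was at 6.08 on average at 24 h, against 5.84 at 0 h. Of 25 autophagy genes 14 were higher and none lower (median 0.36), with Gabarap at 1.42 (adjusted p = 3.59e-08) and Map1lc3b at 1.28 (adjusted p = 1.73e-09), both proteins of the autophagosome membrane.

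Several of these hydrolases are abundant in macrophages, so myeloid markers were read beside them. The mean level of 12 myeloid markers was 3.74 to 3.95 in WT arrays at 24 h, against 3.64 to 3.74 at 0 h. Only Itgam, an integrin chain, passed at 24 h, higher by 2.11 (adjusted p = 1.64e-06). The other 11, Adgre1, Csf1r, Lyz2 and Cd14 among them, did not pass and lay between -0.26 (Mrc1) and 0.24 (Clec7a). Of 5 B-cell markers Blnk was higher, by 1.42 (adjusted p = 0.000526), and none of the 6 fibroblast markers passed by limma, nor at an unadjusted p under 0.05. Of 10 T-cell markers, 5 were higher and 3 lower at 24 h, where 16.3% of all genes were higher and 16.3% lower. The part of these shifts in the lysosomal values was not tested.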

How the data were processed

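Expression was measured on 26 arrays of WT and Kin- S49 cells at 0, 2, 6 and 24 h with the analog, grouped by the labels. The values are scores that the authors deposited in a table with 1 column per array; how the scores were computed, and on what scale, is not given in these sources. They run from 0.375 to 267, and their square root, 0.612 to 16.4, was taken as log2 intensity for its range. No further normalization was applied, as column medians lay between 5.40 and 5.53. Of 22626 probe sets 20380 had 1 gene symbol in the platform annotation, and the gene IDs of 20351 of these were found in a current RefSeq gene table. The number of arrays limits the precision: the median SE was 0.119 for WT at 24 h against 0 h.

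A linear model with 8 group means and a shared spread was fitted with limma 3.58.1 to all probe sets (lmFit, eBayes, R 4.3.3), with Benjamini-Hochberg adjustment over all probe sets and a threshold of 0.05. Tested on simulated data for WT at 24 h against 0 h over 22626 probe sets, it recovered 62% of changes of 0.5 and 83% of changes of 1, and 3.97% of its calls were false. The simulated noise was independent between arrays, and only a small part of the probe sets was shifted. Real arrays share variation by set and run and hold many more changes, so these rates may not hold for them. Promoters are from RefSeq (GRCm38.p6).

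The labels number the arrays in runs of 4 that span 0 to 24 h, apart from the untreated arrays 13 and 14, which have no partner. Deviations from group means correlated over 0.1 in 36 of 36 pairs of arrays of the same run (r = 0.23 to 0.697, median 0.372). In pairs of different runs of the same array set and line they did so in 28 of 30 (r = -0.038 to 0.445, median 0.268), and in arrays 16 to 47 the medians were 0.331 and 0.268, a small gap. As most pairs of different runs also exceeded 0.1, this check cannot show that the runs pair the arrays. That they do was assumed from the numbering. A replicate block is given where it changed a call, except for WT at 24 h against 6 h, where single calls were not compared. Members, role classes and other lists were chosen with earlier results of these data known. Full values are given for members among the 12 largest differences past the threshold at 24 h, the 4 largest at 6 h and at 2 h, all past it between untreated lines and the brightest of each class; other members appear by counts, ranges or by name with their difference. Atp6v1a and Lamp1, outside that rule, had their promoters printed after their values were seen. Genes of the other lists were named from among the 4 largest differences past the threshold in each, and Tfeb and the unpassed myeloid markers were chosen after their values were seen. Alternatives were other scales of the values, quantile normalization, a level filter, the array set as a term or each set alone, the block, array weights, only the groups compared, a second probe set and leaving out each array.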

Additional observations from a re-analysis of the deposited data

Results flagged for a closer look

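In the 90 untreated groups of 4 arrays (45 genes in each line), 4 held an array far from the other 3, where chance alone flags about 1 group in 20. Laptm5 had its lowest WT 0 h value in array 13, at 11.91, with the next at 12.26. Ctsa had its highest WT 0 h value in array 1, at 6.63, with the next at 6.43. Ctsz had its highest Kin- 0 h value in array 14, at 12.47, with the next at 12.19. Ppt1 had its highest Kin- 0 h value in array 44, at 8.00, with the next at 7.57.

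The response to the analog differed between the lines, by limma's test of the WT response minus the Kin- response, for the genes that follow. At 2 h these were Lamp2 (0.85), Laptm4a (0.68), Gla (1.27) and Gusb (-0.72). At 6 h they were Atp6v0d1 (0.72), Lamp2 (1.40), Laptm4a (0.85), Scarb2 (1.13), Ctsl (-1.46), Gla (1.10), Gusb (-0.93), Lipa (1.66) and Npc2 (0.80). At 24 h they were Atp6v0b (0.50), Atp6v0d1 (1.30), Atp6v1c1 (-0.60), Atp6v1d (0.49), Atp6ap1 (0.84), Lamp1 (0.80), Lamp2 (1.89), Laptm4a (0.73), Laptm5 (1.32), Scarb2 (1.00), Npc1 (0.75), Ctsa (1.87), Ctsd (1.28), Glb1 (1.24), Neu1 (0.87), Man2b1 (1.17), Naglu (0.68), Lipa (2.27), Tpp1 (1.37), Npc2 (1.53) and Grn (1.16). The widest of these differences belonged to Lipa at 24 h, and the values below 0 to Gusb at 2 h and 6 h, Ctsl at 6 h and Atp6v1c1 at 24 h.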

How the results depend on the processing

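For WT at 2, 6 and 24 h against 0 h, 8, 15 and 28 members passed; for WT at 24 h against 6 h 23, for untreated Kin- against WT 3, and for the WT minus Kin- response 4, 9 and 21 at 2, 6 and 24 h. Arrays 1 to 14 alone, with a single treated array per group that was assumed to vary like the others, gave 0, 3 and 15 for the WT times, 0 for 24 h against 6 h, 0 for the untreated lines and 0, 0 and 6 for the response differences. Array weights gave 13 at 2 h, 5 for the untreated lines and 7 for the 2 h response difference. Requiring the second probe set to pass the same way gave 5, 1 and 2 for these, where a gene with 1 probe set was counted by that set alone. With the array set as a term the untreated lines gave 9 and the 2 h response difference 7; arrays 16 to 47 alone gave 8 for the untreated lines, log2 of the values 1, and the level filter 7 for the 2 h response difference. The replicate block gave 8 there, for 4 without it, and moved no other count by over 1.5 times. Outside WT at 24 h against 6 h, where calls of single members were not compared, it changed no member's call beyond those given above. Using only the groups compared gave 14 for 24 h against 6 h and 0 for the untreated lines. The cause of these shifts was not tested, beyond the fewer arrays in the smaller fits. Leaving out each array in turn gave 6 to 9, 10 to 15 and 24 to 28 at 2, 6 and 24 h in WT, 18 to 23 for 24 h against 6 h, 1 to 3 for the untreated lines, and 2 to 5, 8 to 10 and 18 to 23 for the response differences; it gave 0 in Kin- each time. The lowest counts came without WT 6 h array 18 (10), Kin- 0 h array 14 or 44 (1) and Kin- 2 h array 41 (2). Of 440 values of the 23 named differences under the alternatives, 406 kept their direction and their side of the threshold, 34 kept only the direction and 0 reversed. In this tally the second-probe-set alternative could not change for a gene with 1 probe set. For other genes its direction was that of the median over all probe sets of the gene. Between untreated lines, Npc2 missed the threshold under 15 of 20 alternatives, Atp6v1d under 9 and Atp6v1e1 under 2. Members at low levels (Ctsh, Naglu, Hexa, Ctss and Sgsh) lie below the median level, where small changes are hard to see.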
